A study of Mus musculus with 12 samples.

Results

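The genes described here make, break down or sense prostaglandins. They were named as a list of 8 symbols, Ptgs1, Ptgs2, Ptges, Ptgis, Ptgds, Hpgd, Ptger2 and Ptger4, and every probe set annotated with 1 of these symbols alone was taken. This gave 7 genes with 13 probe sets, out of 18193 genes with 34945 probe sets on the array. Of these 7 genes, 6 passed the filter on dim probe sets and were tested, among 12456 tested genes in all. No probe set carried Ptgs1 as its only symbol, so Ptgs1 was not analysed here, and Ptgds was too dim to test.

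Prostaglandins are short-lived lipid signals made from arachidonate that phospholipases cut from membranes. A cyclooxygenase (Ptgs1 or the inducible Ptgs2) turns arachidonate into an unstable intermediate, and a terminal synthase turns that into one product: Ptges makes prostaglandin E, Ptgis makes prostacyclin and Ptgds makes prostaglandin D. Hpgd, 15-hydroxyprostaglandin dehydrogenase, starts the breakdown of prostaglandin E inside cells, and Ptger2 and Ptger4 are cell-surface receptors for prostaglandin E that raise cyclic AMP. In fibroblasts, interleukin-1 is a classic inducer of prostaglandin E release.

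Total RNA came from mouse embryonic fibroblasts, cultured cells grown out of embryos, of IRAK4 kinase dead and wild-type animals, and it was amplified and hybridised to 12 one-colour arrays. IRAK4 is the kinase recruited first to the activated interleukin-1 receptor, and in the kinase dead animals the protein is made without catalytic activity. Each genotype had 3 conditions of 2 arrays each: 4 h of growth without stimulation, 1 h with 1 ng/ml mouse IL-1b, and 4 h with the same dose. The unstimulated cells serve as the control of both times, so time in culture differed from the 1 h arrays. The labels do not state the mutation, the strain, or how many embryos or cultures stand behind each group, and the title of 1 unstimulated wild-type array omits the genotype, which the series design supplies. The replicates are called biological, but no label ties them to separate animals or cultures, and the p-values measure only the spread between these arrays.

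All values are MAS5 signals on a linear scale, as deposited by the authors. The 2% trimmed mean of each array was 150, with array medians of 23 to 28.3. Tests used limma on log2(signal + 8), with 1 probe set a gene (that with the highest mean), and a gene is called at an adjusted p under 0.05 over all 12456 genes. The pseudocount of 8 understates the change of dim genes. Arrays of 1 group correlated at 0.967 to 0.974. The 3'/5' ratio of actin, a measure of RNA quality, was 2.83 to 2.86 on the unstimulated kinase dead arrays and 2.14 to 2.68 on the other 10 arrays, and its part in comparisons with the unstimulated kinase dead arrays was not tested. Fibroblast markers were found in both genotypes: all 13 were tested, and their summed signal was 34252.5 to 37248 on kinase dead arrays and 35101 to 40896 on wild-type arrays. The brightest of them, Vim, Col3a1, Col1a2, Col1a1 and Fn1, weigh most in that sum. Within that list Pdgfra was at 118 to 183 on kinase dead arrays and 581 to 811 on wild-type arrays, and Lum was at 56.9 to 81.9 on kinase dead arrays and 277 to 609.7 on wild-type arrays. S100a4 (1083 to 1609 against 2630 to 3150), Postn (1235 to 1402 against 1643 to 1794) and Col5a1 (1691 to 1874 against 1952 to 2365) were also lower without overlap. The remaining fibroblast markers overlapped between genotypes. Summed signal of 12 macrophage markers was 618 to 744 on kinase dead arrays and 253 to 301 on wild-type arrays, without overlap, and 9 leptomeningeal and neural markers summed to 595 to 678 on kinase dead arrays and 232 to 368 on wild-type arrays. In the latter list Fabp7 (185 to 272 against 26.4 to 38.5), Sox2 and Nes were higher in kinase dead cells without overlap. Tubb3 and Gfap overlapped, and Sox10, Olig2 and the leptomeningeal Slc6a13 and Cldn11 failed the filter. Lyz2, the macrophage lysozyme, was at 231 to 319 on kinase dead arrays and 96.7 to 128 on wild-type arrays. C1qb, Tyrobp, Ptprc and Adgre1 were also higher in kinase dead cells without overlap. Other macrophage markers overlapped, namely Csf1r (24.3 to 50.8 against 19.6 to 39.6), Cd68 (20.2 to 46.6 against 13.7 to 38.8), C1qa, Mrc1 and Fcgr1. Fcgr1 at 4 h averaged 14.6 in kinase dead and 30.15 in wild-type cells, and Itgam and C1qc failed the filter. The genotypes therefore differed in marker content at every time, the part of this in the genotype differences below was not tested, and in bulk RNA fewer cells of a type cannot be told apart from less RNA per cell.

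**Figure D1:**
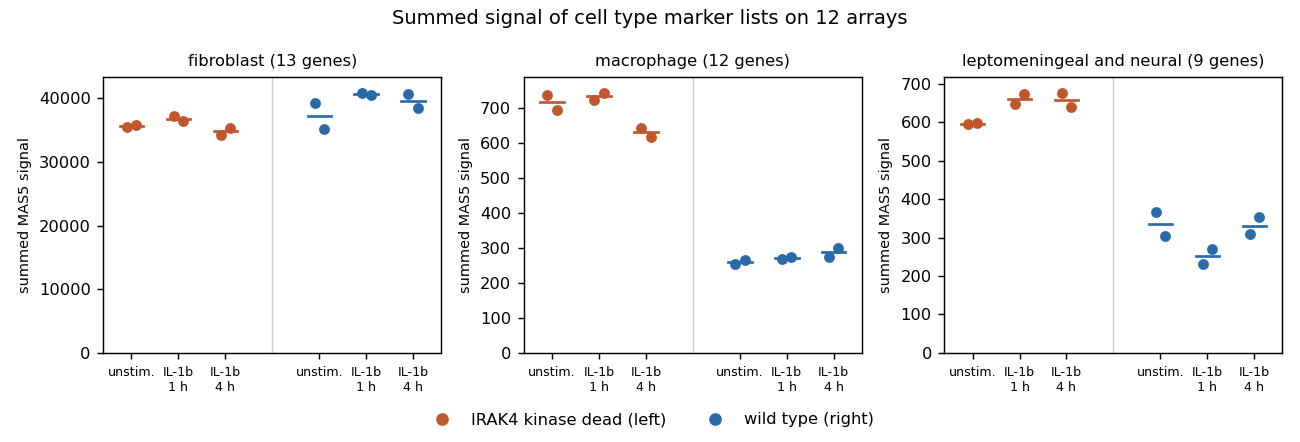
Summed MAS5 signal (linear) of the fibroblast, macrophage, and leptomeningeal and neural marker lists on each of 12 arrays, IRAK4 kinase dead on the left and wild type on the right, with bars at the mean of 2 arrays. The macrophage sums lie at 618 to 744 in kinase dead cells and 253 to 301 in wild-type cells. The fibroblast sums of the genotypes overlap only through the lowest wild-type array, an unstimulated one at 35101.

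Ptgs2, the inducible cyclooxygenase, was bright already without IL-1b and was lower in kinase dead cells at every time. Kinase dead cells gave signals of 2797 and 3657 unstimulated, 4865 and 4234 after 1 h, and 4111 and 4659 after 4 h of IL-1b. Wild-type cells gave 5573 and 4495 unstimulated, 7055 and 7388 after 1 h, and 7446 and 7159.8 after 4 h. The 4 stimulated wild-type arrays were the highest, the 2 unstimulated kinase dead arrays were the lowest, and the stimulated kinase dead arrays overlapped the unstimulated wild-type ones.

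In kinase dead cells Ptgs2 rose at 1 h by 0.50 ± 0.12 on the log2 scale (SE, adjusted p = 0.0264), and the 4 h difference of 0.45 ± 0.12 was not called (adjusted p = 0.0949). In wild-type cells it rose by 0.53 ± 0.12 at 1 h (adjusted p = 0.0101) and by 0.54 ± 0.12 at 4 h (adjusted p = 0.00516). On the probe set that represents Ptgs2, 1417262_at, the response itself was not shown to differ between genotypes. Kinase dead minus wild type was -0.02 at 1 h (95% interval -0.37 to 0.33) and -0.09 at 4 h (95% interval -0.44 to 0.26). The level did differ, with kinase dead over wild type at -0.64 unstimulated (adjusted p = 0.00101), -0.67 at 1 h (adjusted p = 0.000642) and -0.74 at 4 h (adjusted p = 0.000165). The stimulated wild-type arrays of this probe set, at 7055 to 7446, lay above the brightest fibroblast marker, Vim (at most 6859). Whether signals that high limit a further rise, and with it the response difference, was not tested. The kinase dead 1 h call was lost without the first unstimulated kinase dead array (0.31, adjusted p = 0.231), the first 1 h array (adjusted p = 0.231) or the second (0.0665). The wild-type 1 h call was lost without the second unstimulated wild-type array (adjusted p = 0.0724), the first 1 h array (0.0531) or the second (0.0972). At 4 h the kinase dead rise was called without the first or second unstimulated wild-type array (adjusted p = 0.0266 and 0.0271) or the second unstimulated kinase dead array (0.0318).

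A second Ptgs2 probe set, 1417263_at, also gave lower signals in kinase dead cells. It read 21.6 and 33.2, then 39.6 and 71.9, then 43.3 and 50.2 in kinase dead cells, unstimulated and at 1 h and 4 h. The wild-type readings in the same order were 78.9 and 124, 175 and 202, and 232 and 251, so every wild-type array exceeded every kinase dead array. In a fit over all 22676 probe sets that passed the filter, kinase dead over wild type was -1.62 unstimulated, -1.67 at 1 h and -2.19 at 4 h (adjusted p = 0.000389, 0.000235 and 8.38e-06). Its wild-type response was 1.22 ± 0.26 at 4 h (adjusted p = 0.00592), while the 1 h difference of 0.87 was not called (adjusted p = 0.0553). In kinase dead cells the differences of 0.82 at 1 h and 0.65 at 4 h were not called (adjusted p = 0.111 and 0.314). The 1 h response difference of this probe set was -0.05 (95% interval -0.82 to 0.72, adjusted p = 0.985). Its 4 h response difference was -0.57 (95% interval -1.34 to 0.19) and was not called (adjusted p = 0.498). With both probe sets averaged, the genotype difference in Ptgs2 was -1.13 unstimulated, -1.17 at 1 h and -1.46 at 4 h, and the wild-type 4 h response was 0.88. Over all alternatives the Ptgs2 response difference at 4 h lay between -0.33 and 0.10. That range holds for the probe set that represents Ptgs2 and for the average of both. The -0.57 of the second probe set alone lay outside it.

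The region just upstream of Ptgs2 is printed because this gene is the entry point of the pathway and moved in both genotypes. The 250 bases before the start, from RefSeq on GRCm38.p6, lie at chr1:150099781-150100030 on the plus strand. Capitals mark a GC box (GGGCGG) and a C/EBP-type match (TTNNGCAA, a palindrome here).
Ptgs2: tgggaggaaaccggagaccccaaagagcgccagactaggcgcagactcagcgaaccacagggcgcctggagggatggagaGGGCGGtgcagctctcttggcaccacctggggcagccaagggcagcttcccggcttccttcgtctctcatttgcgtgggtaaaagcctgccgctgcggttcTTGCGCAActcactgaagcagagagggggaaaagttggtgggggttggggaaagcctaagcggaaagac
The search covered 300 bases, to 50 past the start, on both strands, for an NF-kB-type pattern, the GC box and the C/EBP type. It also covered the letters TGACG for the CRE type of cyclic AMP responsive elements, the letters CACGTG for the E-box, which basic helix-loop-helix factors bind, and the letters TGANTCA for the AP-1 type that Fos and Jun proteins bind. The last motif was the letters TATAAA, the TATA type. Past the start the Ptgs2 window also held a CRE type that overlaps an E-box, and no NF-kB-type match. Among 32851 mouse promoters of that length, 10.8% held the C/EBP type, 20.8% the CRE type, 7.15% the E-box, 35.7% the GC box and 4.79% the NF-kB type. A match of letters describes the window only.

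**Figure D2:**
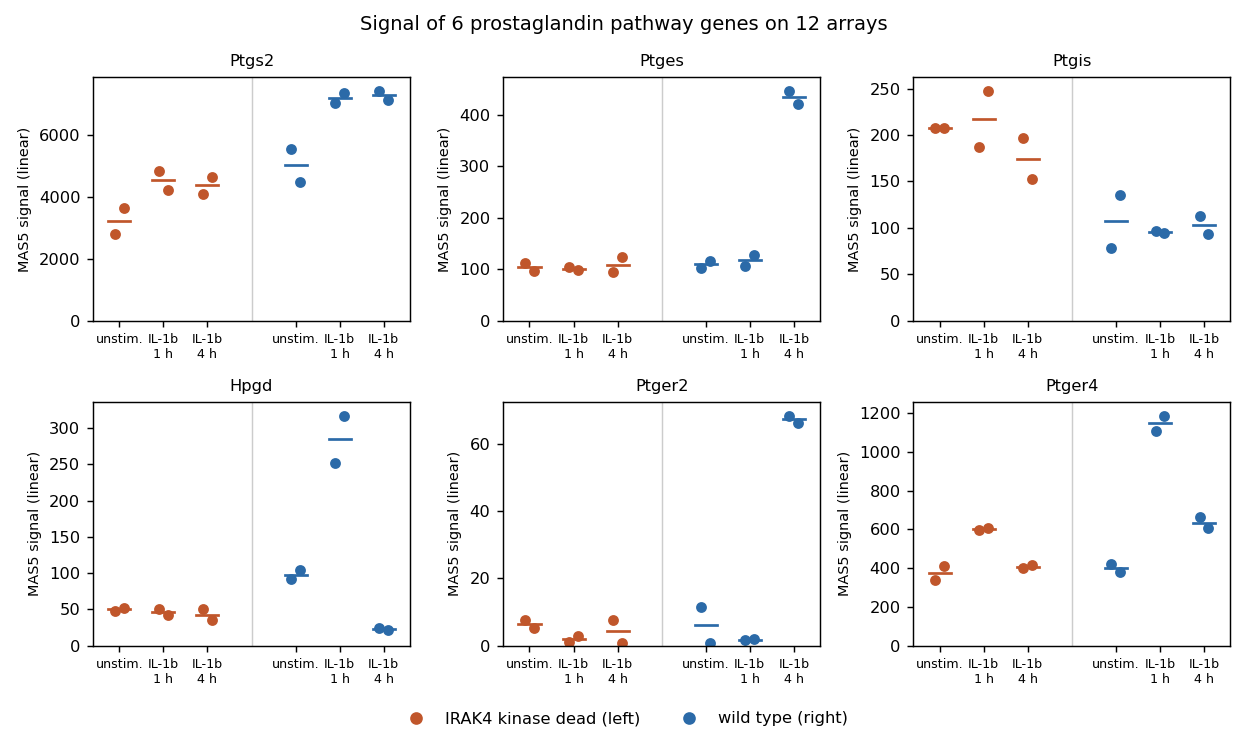
MAS5 signal (linear) of the 6 tested genes on each of 12 arrays, IRAK4 kinase dead on the left and wild type on the right, with bars at the mean of 2 arrays. Ptges and Ptger2 stand high on the 2 wild-type 4 h arrays alone, Hpgd peaks on the wild-type 1 h arrays, Ptgis is higher on all 6 kinase dead arrays, and Ptgs2 and Ptger4 move in both genotypes.

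Ptges, the inducible synthase of prostaglandin E, rose late and was called in wild-type cells alone. In kinase dead cells its signal was 111.5 and 96.1 unstimulated, 104 and 98.5 at 1 h, and 94.1 and 123 at 4 h. In wild-type cells it was 103 and 116 unstimulated, 107 and 128 at 1 h, and 446.5 and 420.5 at 4 h. Both wild-type 4 h arrays stood above all the others, and the other 10 arrays overlapped between 94.1 and 128.

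The kinase dead difference at 4 h was 0.05 ± 0.17 (95% interval -0.30 to 0.41, adjusted p = 0.927). The wild-type rise at 4 h was 1.91 ± 0.17 (adjusted p = 5.9e-07), after a 1 h difference of 0.09 (adjusted p = 0.795), and 4 h over 1 h was 1.82 ± 0.17 (adjusted p = 8.94e-07). The 4 h response differed between genotypes, kinase dead minus wild type, by -1.86 ± 0.24 (adjusted p = 0.000204). No array left out ended either call.

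The remaining Ptges probe sets were dimmer and gave no call in any comparison. Probe set 1449449_at ranged from 2.3 to 57.9 over the 12 arrays, with a wild-type 4 h difference of 1.44 (adjusted p = 0.149). Probe set 1449450_at ranged from 30.7 to 68.5, above the filter on all 12 arrays. In wild-type cells 1449450_at read 46 and 54.8 unstimulated and 68.5 and 50.8 at 4 h. That difference was 0.20 (95% interval -0.37 to 0.78), an interval below the 1.91 of 1439747_at, which represents the gene. With all 3 averaged the wild-type 4 h rise was 1.18 (adjusted p = 0.00974), 4 h over 1 h was 0.87, the 4 h genotype difference was -1.04 and the response difference was -0.93 and not called (adjusted p = 0.236).

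The Ptges upstream region, chr2:30903298-30903547 on the minus strand, is shown for comparison with that of Ptgs2, since these enzymes act in sequence and differed in time course. Capitals mark 2 GC boxes, and none of the other 6 motifs was matched in the 300 bases.
Ptges: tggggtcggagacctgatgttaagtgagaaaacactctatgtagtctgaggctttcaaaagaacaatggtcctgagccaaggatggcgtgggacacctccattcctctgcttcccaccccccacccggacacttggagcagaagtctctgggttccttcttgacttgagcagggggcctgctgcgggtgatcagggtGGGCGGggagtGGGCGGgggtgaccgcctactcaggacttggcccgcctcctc

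Ptgis, prostacyclin synthase, did not follow IL-1b and was higher in kinase dead cells. Kinase dead cells read 207 and 207 unstimulated, 187 and 248 at 1 h, and 197 and 152 at 4 h. Wild-type cells read 78.1 and 136 unstimulated, 97.2 and 94.7 at 1 h, and 113 and 93.2 at 4 h. All 6 kinase dead arrays exceeded all 6 wild-type arrays, at 152 to 248 against 78.1 to 136, while the wild-type conditions overlapped. In kinase dead cells the 1 h arrays overlapped those of both other conditions, and both 4 h arrays lay below the unstimulated ones.

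Kinase dead over wild type was 0.95 ± 0.22 unstimulated (adjusted p = 0.00589), 1.10 ± 0.22 at 1 h (0.00174) and 0.71 ± 0.22 at 4 h (0.0243). The largest response to IL-1b in either genotype was -0.25 at 4 h in kinase dead cells, with a 95% interval of -0.71 to 0.21. The unstimulated call was lost without the first unstimulated wild-type array (0.58, adjusted p = 0.0724). The 4 h call was lost without the second wild-type 4 h array (adjusted p = 0.164) or the first kinase dead 4 h array (0.21). The mean difference over the 3 conditions, a comparison chosen after seeing the data, was 0.92 ± 0.12 (adjusted p = 1.75e-05). Macrophage markers as a sum moved the same way, at 618 to 744 in kinase dead cells and 253 to 301 in wild-type cells, and their part in the Ptgis difference was not tested. Endothelial markers (3 of 8 tested) summed to 93.6 to 134 in kinase dead cells and 50 to 121.5 in wild-type cells, and smooth muscle markers (5 of 6 tested) to 5882 to 6469 in kinase dead cells and 5256 to 6447 in wild-type cells, so both overlapped.

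Ptgds, which makes prostaglandin D, was at the dim end of the array. Its 2 probe sets ranged from 1.9 to 25.6 and from 1.0 to 13.7, and the filter of 25.5, the median of all values, was reached on 1 array and on 0 arrays, so no test was made.

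Hpgd, the enzyme that inactivates prostaglandin E, moved in opposite directions at the 2 times in wild-type cells. In kinase dead cells it read 48.3 and 52.3 unstimulated, 50 and 42.4 at 1 h, and 50.7 and 35.1 at 4 h. In wild-type cells it read 91.9 and 104 unstimulated, 252 and 317 at 1 h, and 25.1 and 22.0 at 4 h. The wild-type groups did not overlap one another: 1 h was highest, unstimulated was next and 4 h was lowest, below every kinase dead array. The kinase dead groups lay between 35.1 and 52.3 and overlapped.

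The kinase dead differences were -0.11 at 1 h (95% interval -0.57 to 0.35) and -0.21 at 4 h (95% interval -0.67 to 0.25), neither called. Wild-type Hpgd rose by 1.46 ± 0.22 at 1 h (adjusted p = 0.000418) and was lower at 4 h by -1.75 ± 0.22 (adjusted p = 3.25e-05). These put 4 h below 1 h by -3.21 ± 0.22 (adjusted p = 4.17e-08). Kinase dead over wild type accordingly changed sign with time, at -0.86 unstimulated (adjusted p = 0.0131), -2.43 at 1 h (5e-07) and 0.67 at 4 h (0.034).

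The responses differed between genotypes by -1.57 ± 0.31 at 1 h (adjusted p = 0.0277) and by 1.53 ± 0.31 at 4 h (adjusted p = 0.00941). The 1 h response difference was lost in 8 of 12 cases of leaving out an array, each of the 8 unstimulated and 1 h arrays: adjusted p was 0.0692 and 0.0527 without the first and second unstimulated wild-type array, 0.059 and 0.218 without the 1 h wild-type arrays, 0.0719 and 0.108 without the unstimulated kinase dead arrays, and 0.0678 and 0.135 without the 1 h kinase dead arrays. The 4 h response difference was lost without the first kinase dead 4 h array (1.31, adjusted p = 0.0617). The unstimulated genotype call was lost without the second unstimulated wild-type array (0.0886) or the first unstimulated kinase dead array (0.0846). The 4 h genotype call was lost without the first (0.0665) or second (0.137) wild-type 4 h array or the first kinase dead 4 h array (0.278), and with a pseudocount of 32 (0.42, adjusted p = 0.071), no filter (0.076), quantile normalization (0.0632), median centring (0.0793) or the compared groups alone (0.178).

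The suffix of the Hpgd probe set 1419905_s_at marks probes that may match more than 1 transcript, so the second probe set, 1419906_at, was read as well. It gave 31.5 and 40.7, then 35.5 and 28.2, then 27.9 and 16.3 in kinase dead cells, unstimulated and at 1 h and 4 h. In wild-type cells it gave 51.9 and 42.0, then 101.5 and 139, then 9.5 and 2.0, the same order of the 3 groups as the first probe set. In the fit over all probe sets it rose by 1.22 ± 0.33 at 1 h (adjusted p = 0.0378) and was at -2.05 ± 0.33 at 4 h (adjusted p = 0.000678) in wild-type cells. Kinase dead over wild type was -0.32 unstimulated (adjusted p = 0.612), -1.68 at 1 h (0.00236) and 1.16 at 4 h (0.0216). Its response differences of -1.36 at 1 h and 1.48 at 4 h were not called (adjusted p = 0.446 and 0.135).

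**Figure D3:**
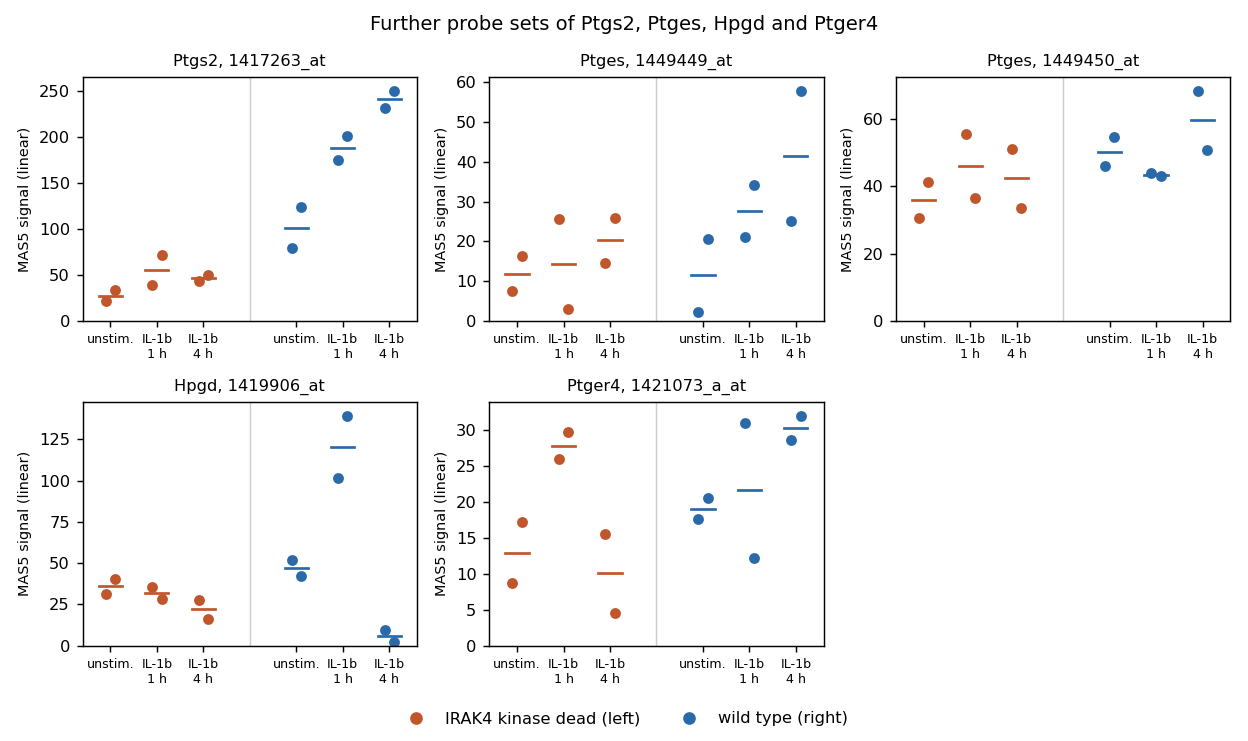
MAS5 signal (linear) of the 5 probe sets of Ptgs2, Ptges, Hpgd and Ptger4 that passed the filter but did not represent their gene, on each of 12 arrays, IRAK4 kinase dead on the left and wild type on the right, with bars at the mean of 2 arrays. Hpgd 1419906_at repeats the high 1 h and low 4 h signals of wild-type cells, Ptgs2 1417263_at is higher on every wild-type array, and Ptger4 1421073_a_at stays between 4.5 and 32.

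The Hpgd upstream region, chr8:56294302-56294551 on the plus strand, is shown because Hpgd was the one tested member that rose and then was called lower than in unstimulated cells. The capitals mark a GC box read on the opposite strand, and a TATA-type match lay past the start.
Hpgd: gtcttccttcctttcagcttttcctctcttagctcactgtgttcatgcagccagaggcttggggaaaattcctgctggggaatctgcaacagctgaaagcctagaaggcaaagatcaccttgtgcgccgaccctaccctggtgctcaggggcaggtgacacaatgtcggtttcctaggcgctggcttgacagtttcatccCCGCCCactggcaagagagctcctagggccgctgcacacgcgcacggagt

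Among the receptors, Ptger4 peaked at 1 h in both genotypes, and the peak was higher in wild-type cells. Ptger4 read 338 and 409 unstimulated, 599 and 605 at 1 h, and 399 and 415 at 4 h in kinase dead cells. It read 422 and 383 unstimulated, 1107.5 and 1187 at 1 h, and 665 and 605 at 4 h in wild-type cells. The wild-type 1 h arrays were the highest, the kinase dead 1 h and wild-type 4 h arrays touched at 605, and the remaining 6 arrays overlapped between 338 and 422.

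In kinase dead cells Ptger4 rose by 0.68 ± 0.11 at 1 h (adjusted p = 0.00341), differed by 0.13 at 4 h (adjusted p = 0.68) and was lower at 4 h than at 1 h (-0.56, adjusted p = 0.011). In wild-type cells it rose by 1.49 ± 0.11 at 1 h (adjusted p = 1.7e-07) and 0.65 ± 0.11 at 4 h (adjusted p = 0.00102), with 4 h below 1 h by -0.85 ± 0.11 (adjusted p = 4.84e-05). Kinase dead over wild type was -0.11 unstimulated (adjusted p = 0.598), -0.92 at 1 h (1.91e-05) and -0.63 at 4 h (0.000554).

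The Ptger4 response differed between genotypes by -0.81 ± 0.16 at 1 h (adjusted p = 0.0286), and the 4 h difference of -0.52 ± 0.16 was not called (adjusted p = 0.0982). The 1 h response difference was lost without the second unstimulated wild-type array (0.0609), the first or second 1 h wild-type array (0.0741 and 0.188), the second unstimulated kinase dead array (0.15), the first or second 1 h kinase dead array (0.136 and 0.12) or the second kinase dead 4 h array (0.0505). The kinase dead fall after 1 h was lost without the first or second 1 h array (0.085 and 0.0811) or the first or second 4 h array (0.0915 and 0.0751). Without the first unstimulated wild-type array the 4 h response difference was called (adjusted p = 0.0475).

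A dim second Ptger4 probe set, 1421073_a_at, lay between 4.5 and 32 and gave no call in any comparison. With both averaged, the wild-type 1 h rise was 0.78 (adjusted p = 0.0232), 4 h over 1 h was -0.20 (adjusted p = 0.524), the 1 h genotype difference was -0.28 (adjusted p = 0.4) and the 1 h response difference was -0.03 (adjusted p = 0.985). The wild-type 4 h and kinase dead 1 h calls were lost as well (adjusted p = 0.0649 and 0.0583).

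The Ptger4 upstream region, chr15:5244188-5244437 on the minus strand, is printed as that of the receptor that responded in both genotypes. Capitals mark 4 GC boxes read on the opposite strand, of which the first 2 overlap by 1 base, and none of the other 6 motifs was matched.
Ptger4: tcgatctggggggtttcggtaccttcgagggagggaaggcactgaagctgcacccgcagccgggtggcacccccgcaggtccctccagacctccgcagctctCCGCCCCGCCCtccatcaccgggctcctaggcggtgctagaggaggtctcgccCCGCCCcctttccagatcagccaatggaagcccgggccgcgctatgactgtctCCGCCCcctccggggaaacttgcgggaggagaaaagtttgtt

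Ptger2, the other receptor tested, was above the filter on the 2 wild-type 4 h arrays alone, where it read 68.4 and 66.3. Kinase dead arrays read 7.6 and 5.3 unstimulated, 1.2 and 2.8 at 1 h, and 7.8 and 0.7 at 4 h, and the remaining wild-type arrays read 11.4 and 0.7 unstimulated and 1.8 and 1.9 at 1 h. It entered the test only through the wild-type 4 h arrays and so had to differ there, and its fold change depends on the pseudocount. At 4 h, kinase dead over wild type was -2.68 ± 0.59 (adjusted p = 0.00274), or -4.14 with a pseudocount of 1 (adjusted p = 0.0629) and -1.46 with 32. The wild-type 4 h response was 2.54 ± 0.59 (adjusted p = 0.00863), or 3.90 (adjusted p = 0.115) and 1.40 with those pseudocounts, and 4 h over 1 h was 2.94, or 4.58 and 1.55. The wild-type 4 h call was lost without the second unstimulated wild-type array (0.062) or the first or second 4 h array (0.0678 and 0.0652). The 4 h response difference of -2.83 ± 0.83 was not called (adjusted p = 0.0795), and it was called without the first unstimulated wild-type array (adjusted p = 0.0345), with a pseudocount of 32 (0.00922), without the filter (0.0235) and without the variance trend (0.048).

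Counted by comparison, 0 of the 6 tested genes were called by limma at 4 h in kinase dead cells (1 at an unadjusted p under 0.05), where 0.618% of all genes were called, and 5 of 6 at 4 h in wild-type cells, where 12.0% were called. At 1 h, 2 of 6 were called in kinase dead cells (3.28% of all genes) and 3 of 6 in wild-type cells (7.44%). Between 4 h and 1 h, 1 of 6 was called in kinase dead cells (4.04%) and 4 of 6 in wild-type cells (19.0%). Between genotypes, 3 of 6 were called unstimulated (14.3%), 4 of 6 at 1 h (13.3%) and 6 of 6 at 4 h (23.1%). Ptger2 passed the filter through the wild-type 4 h arrays alone and so had to differ in 3 of these comparisons, wild type at 4 h, wild type 4 h over 1 h and genotype at 4 h, whose counts include it. The 4 h response difference and the comparison over the 3 conditions draw on the same arrays, and their counts do not include Ptger2. The difference of response was called for 2 of 6 at 1 h, Hpgd and Ptger4 (0.490% of all genes), and for 2 of 6 at 4 h, Ptges and Hpgd (3.03%). Over the 3 conditions together, 5 of 6 were called (31.8%). In the fit over every probe set, the called shares were 2.42% and 0.415% at 1 h and 4 h and 2.89% for 4 h over 1 h in kinase dead cells, and 6.08%, 8.45% and 15.1% in wild-type cells. Between genotypes they were 11.6% unstimulated, 10.8% at 1 h, 18.2% at 4 h and 27.6% over the 3 conditions, with 0.353% and 1.94% for the 1 h and 4 h response differences. The 1 h and 4 h comparisons of a genotype share their unstimulated arrays and are not independent of each other.

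The median log2 difference over the 6 genes, Ptger2 included, was -0.08 at 4 h in kinase dead cells and 0.60 at 4 h in wild-type cells, beside -0.01 and -0.12 over all tested genes. Between genotypes it was -0.09 unstimulated, -0.43 at 1 h and -0.68 at 4 h, beside -0.02, 0.03 and 0.08 over all tested genes.

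**Figure D4:**
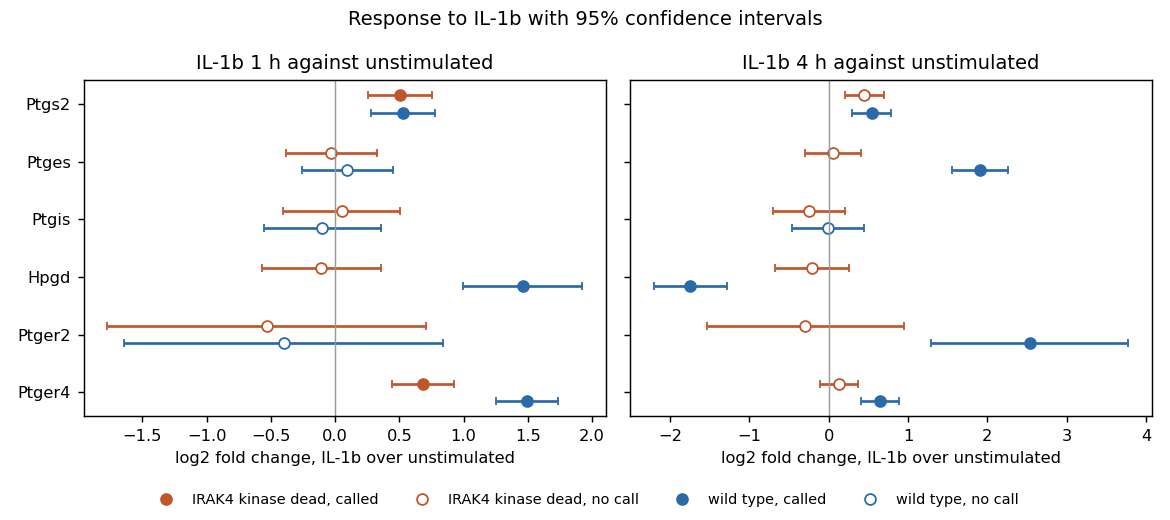
Log2 fold change of IL-1b over unstimulated for the 6 tested genes at 1 h and at 4 h, IRAK4 kinase dead above wild type, with 95% confidence intervals from limma, filled where called. The genotypes overlap for Ptgs2 at both times, whereas the intervals of Hpgd and Ptger4 at both times and of Ptges at 4 h do not meet. Those of Ptger2 at 4 h do not meet either, but Ptger2 passed the filter through the wild-type 4 h arrays alone and so had to differ there. The test of the difference itself did not call Ptger2 or Ptger4 at 4 h.

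The other genes of the pathway were read in 5 lists of 57 genes, of which 34 were tested. In kinase dead cells limma called 0 of 34 at 1 h and 0 of 34 at 4 h, with 5 and 2 at an unadjusted p under 0.05. In wild-type cells 1 of 34 was called at 1 h, Mgll, a lipase of monoacylglycerols, at -0.83 (adjusted p = 0.0478). At 4 h 4 were higher (Slco3a1, Ptgir, Ptgfr and Plaat3) and 1 lower (Cbr1). The Mgll call was lost on leaving out 9 arrays, all but the second unstimulated wild-type and both unstimulated kinase dead arrays (adjusted p up to 0.576 over all alternatives). Between genotypes, 2 were higher and 5 lower in unstimulated kinase dead cells, 2 higher and 4 lower at 1 h, and 4 higher and 7 lower at 4 h. The response difference was called for 0 of 34 at 1 h (2 at an unadjusted p under 0.05) and 2 of 34 at 4 h. Beside these counts, the called share of all tested genes at 1 h and 4 h was 3.28% and 0.618% in kinase dead cells and 7.44% and 12.0% in wild-type cells. Between genotypes the share was 14.3% unstimulated, 13.3% at 1 h and 23.1% at 4 h. For the response differences it was 0.490% at 1 h and 3.03% at 4 h.

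For arachidonate release, 14 of 19 genes were tested, and 3 were lower in unstimulated kinase dead cells, a comparison in which 14.3% of all genes were called. Pla2g4a, the cytosolic phospholipase that supplies arachidonate to the cyclooxygenases, read 481 and 364 unstimulated, 526.5 and 545 at 1 h, and 556.5 and 519 at 4 h in kinase dead cells. It read 775 and 739 unstimulated, 766 and 731 at 1 h, and 746 and 815 at 4 h in wild-type cells. Every kinase dead array lay below every wild-type array, and kinase dead over wild type was -0.84 unstimulated (adjusted p = 0.00011), -0.48 at 1 h (0.0128) and -0.53 at 4 h (0.00386). The 1 h call was lost without any 1 of the 4 arrays at 1 h, with adjusted p up to 0.104 over all alternatives. Pla2g7, an acetylhydrolase of platelet-activating factor, was lower in kinase dead cells too (-0.75, -0.61 and -0.58, adjusted p = 0.00318, 0.0142 and 0.0123), with its 1 h call lost without the second wild-type or either kinase dead 1 h array and its 4 h call without the second 4 h array of either genotype (adjusted p up to 0.156 and 0.101). Plaat3, a phospholipase of adipose tissue, was higher at 4 h in wild-type cells (0.44, adjusted p = 0.0213), a call lost without the first unstimulated or either 4 h wild-type array (adjusted p up to 0.119). Every kinase dead array of Plaat3 (487 to 662) lay below every wild-type array (692 to 1001). Kinase dead over wild type was -0.42 unstimulated (adjusted p = 0.0255) and -0.76 at 4 h (0.000138), and was not called at 1 h. The unstimulated call was lost without the second unstimulated array of either genotype (adjusted p up to 0.242 over all alternatives).

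Among transport and further breakdown genes, 7 of 8 were tested. Slco2a1, the prostaglandin transporter that brings prostaglandins into cells, was lower in kinase dead cells at every time. It read 32.7 and 55.2, 23.5 and 35.5, and 41.4 and 52.0 in kinase dead cells, against 124 and 109.9, 92.9 and 83.5, and 127 and 161 in wild-type cells, unstimulated and at 1 h and 4 h. Without overlap between genotypes, the differences were -1.30 unstimulated (adjusted p = 0.00145), -1.38 at 1 h (0.000768) and -1.47 at 4 h (0.000261). Zadh2, a reductase of the later breakdown steps, was higher in kinase dead cells, by 0.69 unstimulated, 0.67 at 1 h and 0.60 at 4 h (adjusted p = 0.000365, 0.000372 and 0.000635).

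Slco3a1, an organic anion transporter that carries prostaglandins among other substrates, joined Ptges in rising at 4 h in wild-type cells. It read 847 and 677, 864 and 805, and 806 and 780.2 in kinase dead cells, and 518 and 439, 411.5 and 469, and 1036 and 999 in wild-type cells. The unstimulated and 1 h wild-type arrays were the lowest and the wild-type 4 h arrays the highest. The wild-type 4 h rise was 1.08 ± 0.12 (adjusted p = 1.02e-05), and the 4 h response difference, kinase dead minus wild type, was -1.02 ± 0.17 (adjusted p = 0.00219).

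Of the other prostanoid receptors, 5 of 8 were tested. Ptgir, the receptor of prostacyclin, read 34.3 and 29.8, 21.1 and 10.3, and 36.4 and 41.1 in kinase dead cells, and 18.8 and 31.2, 34.4 and 36.3, and 152 and 106.5 in wild-type cells. The wild-type 4 h arrays stood alone, with a rise of 2.06 ± 0.31 (adjusted p = 0.000205) and a response difference of -1.84 ± 0.43 (adjusted p = 0.0257). That response difference was lost without the first unstimulated wild-type array, the first wild-type 4 h array, or any 1 of the 4 unstimulated and 4 h kinase dead arrays, with adjusted p up to 0.122 over all alternatives. Ptgfr, the receptor of prostaglandin F, was higher at 4 h in wild-type cells by 1.10 (adjusted p = 0.0212), a call lost without any 1 of the 4 arrays compared (adjusted p up to 0.144). It was lower in kinase dead cells at -1.31 unstimulated, -1.15 at 1 h and -2.21 at 4 h (adjusted p = 0.0055, 0.0133 and 2.54e-05). Its unstimulated call was lost without the first unstimulated kinase dead array (adjusted p = 0.0627), and its 1 h call without the first 1 h array of either genotype (adjusted p up to 0.161 over all alternatives).

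Of the other terminal synthases 6 of 8 were tested, and Cbr1, a carbonyl reductase, was higher in kinase dead cells at 4 h (0.66, adjusted p = 0.00274). Its wild-type 4 h difference of -0.46 (adjusted p = 0.0458) was lost on leaving out 9 arrays, all but the second unstimulated wild-type and both 1 h kinase dead arrays (adjusted p up to 0.241). In the lipoxygenase and leukotriene branch only 2 of 14 genes were tested, and Alox5ap was called once, at 4 h, higher in kinase dead cells (1.22, adjusted p = 0.04), at signals of 5.4 to 32.8. Alox5ap reached the filter on the 2 kinase dead 4 h arrays alone (25.7 and 32.8), so it had to differ there, and the count of 4 higher genes at 4 h includes it. That call was lost without either 1 h wild-type array, the first 4 h wild-type array, the first 1 h kinase dead array or either 4 h kinase dead array (adjusted p up to 0.201).

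**Figure D5:**
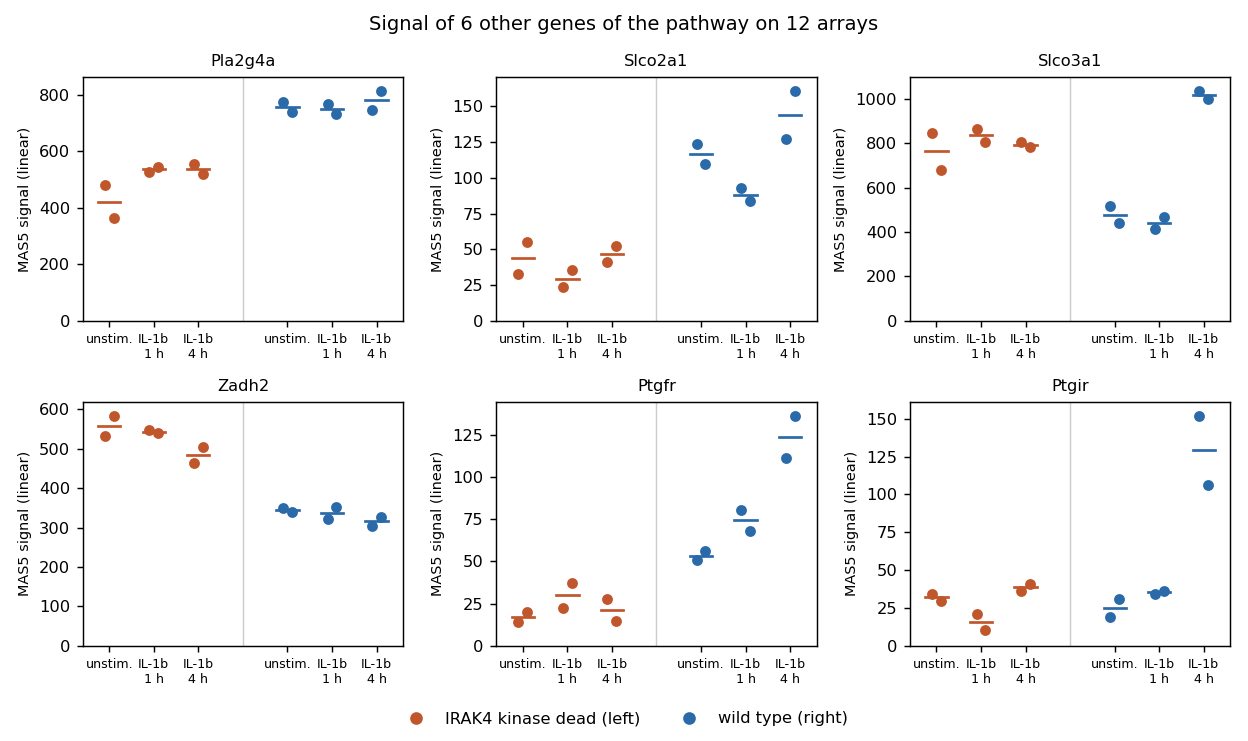
MAS5 signal (linear) of 6 other pathway genes on each of 12 arrays, IRAK4 kinase dead on the left and wild type on the right, with bars at the mean of 2 arrays. Pla2g4a, Slco2a1 and Ptgfr are lower and Zadh2 is higher on every kinase dead array, and Slco3a1 and Ptgir stand highest on the wild-type 4 h arrays.

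Genes with the most similar course over the 6 group means were ranked by Pearson's r of log2 values, among 3038 genes that spanned at least 1 log2 unit, as a description with no test. Closest to Ptgs2 were Ereg (0.988), E2f8 (0.986), Ier3 (0.981), Dact2 (0.981) and Rela (0.979). Closest to Ptges were Rab32 (0.996), Stat5a (0.996), Lcn2 (0.994) and Gbp2b (0.992). Closest to Ptgis were C3ar1 (0.997), Mtss1 (0.996), Cd93 (0.996), Laptm5 (0.993) and Parm1 (0.993). Hpgd had looser neighbours, Snx15 (0.955), Itpkc (0.944), Plb1 (0.942), Gja5 (0.934) and Arsj (0.932). Ptger2 was nearest to Grk5 (0.991), Jak2 (0.988), Pdlim4 (0.988), Slc7a2 (0.986) and Mfhas1 (0.985). Ptger2 passed the filter through the wild-type 4 h arrays alone, so its r had to rest on that group. Lcn2, named for Ptges, had the same shape, with means of 178.8 in wild-type cells at 4 h and 4.6 to 8 in the other groups. Ptger4 was nearest to Btg2 (0.995), Atf3 (0.985), Phlda1 (0.977), Ccnl1 (0.968) and Pim1 (0.963). All 6 means of a pair come from the same arrays, so shared scaling enters each r.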

How the data were processed

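RNA was labelled with biotin after amplification and read on one-colour expression arrays of 45101 probe sets, 64 of them controls. The deposited intensity values are linear probe set signals made with MAS5, per the submitters' processing notes. The depth of an array is not a read count, and 2 arrays a group limit the precision.

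Probe sets were named through the platform annotation, which gave 1 symbol to 34945 probe sets and several to 932 that were left out. Gene IDs of 34741 matched RefSeq (GRCm38.p6), used for names and promoters. The filter kept probe sets with a signal of 25.5 (the median signal of the table) or more on 2 or more arrays. Signals were taken as log2(signal + 8), a pseudocount near the 25th percentile of all values (7.9). The 6 group means were fitted with limma 3.58.1 (eBayes with trend, 6 residual degrees of freedom) in R 4.3.3, and p-values were two-sided and adjusted by Benjamini-Hochberg within each of 12 comparisons. Figures used matplotlib 3.10.9 under Python 3.11.15.

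The genes, lists and comparisons were chosen with earlier results of these data known, and the comparison over all 3 conditions was added after seeing the data. All members were named in every comparison. From each list of other pathway genes, up to 4 called genes with the largest change were named. For like patterns the 5 genes with the highest r were named, except 1 probe set annotated only with a microRNA symbol.

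In simulated data for the wild-type 4 h comparison over 12456 genes, 67% of genes changed by 1 log2 unit and 97% of those changed by 2 were recovered, with 12 of 176 calls false. For the 4 h response difference these were 53% and 86%, with 13 of 152 calls false. These simulations changed 200 genes and drew normal noise from the fitted spread, so the rates hold for that setting only. In the data themselves 1498 and 378 genes were called in these comparisons. Same-numbered replicates did not deviate together (correlations of -0.0501 to 0.0992 over 15 pairs of groups, 0 of them over 0.1), so the main fit did not pair arrays by number. The check cannot show whether same-numbered arrays shared a culture or handling, which no label states. Alternatives were pseudocounts of 1 and 32, no filter or a stricter one, quantile normalization, median centring, no variance trend, the compared groups alone, array weights, the mean of probe sets, every probe set, the replicate block and each array left out in turn. No label gives a scan date or batch.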

Additional observations from a re-analysis of the deposited data

Results flagged for a closer look

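A test of the difference itself called 4 responses as different between genotypes, given as kinase dead minus wild type on the log2 scale. For Hpgd at 1 h it was -1.57 ± 0.31 (SE, adjusted p = 0.0277), with no call in kinase dead cells and a called rise in wild-type cells. For Hpgd at 4 h it was 1.53 ± 0.31 (adjusted p = 0.00941), the opposite sign, with kinase dead signals of 50.7 and 35.1 above both wild-type arrays at 25.1 and 22.0. For Ptger4 at 1 h it was -0.81 ± 0.16 (adjusted p = 0.0286), with a called rise in each genotype. For Ptges at 4 h it was -1.86 ± 0.24 (adjusted p = 0.000204). The 1 h calls of Hpgd and Ptger4 were lost on leaving out most single arrays, and the 4 h call of Hpgd without the first kinase dead 4 h array. With the probe sets of a gene averaged, 3 were not called: Hpgd at 1 h (-1.46, adjusted p = 0.104), Ptger4 at 1 h (-0.03, 0.985) and Ptges at 4 h (-0.93, 0.236). Each group held 2 arrays, too few to look for single arrays that stand apart.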

How the results depend on the processing

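Of 1728 values of the 6 genes under other settings, 1647 stayed on the same side of the threshold with the same direction, 65 lost a call, 16 gained one and 0 of the called ones reversed. The 1728 include results not called in the main fit, many of them far from the threshold. The share that stayed is therefore no measure of how firm the calls were. The number of the 6 genes called at 1 h in kinase dead cells was 2, and 1 without the filter, with median centring or with the mean of probe sets, and 0 without the variance trend. At 4 h in kinase dead cells it was 0, and 1 with quantile normalization, the compared groups alone or array weights. Between 4 h and 1 h in kinase dead cells it was 1, and 0 without the variance trend. For the 1 h response difference it was 2, then 1 with a pseudocount of 1, without the filter or with the compared groups alone, and 0 without the variance trend or with the mean of probe sets. For the 4 h response difference it was 2, then 1 with the mean of probe sets, and 3, with Ptger2 added, with a pseudocount of 32, without the filter or without the variance trend. Over the 3 conditions Ptger2 was added too, with a pseudocount of 32, without the filter, with a stricter filter or without the variance trend (adjusted p = 0.00695, 0.021, 0.0475 and 0.0207). Both comparisons draw on the wild-type 4 h arrays through which alone Ptger2 passed the filter, so these added calls carry no separate weight. Leaving out each array in turn gave 1 to 2 (kinase dead 1 h), 0 to 1 (kinase dead 4 h), 0 to 1 (kinase dead 4 h over 1 h), 2 to 3 (wild type 1 h), 4 to 5 (wild type 4 h), 4 to 4 (wild type 4 h over 1 h), 2 to 3 (genotype, unstimulated), 4 to 4 (genotype, 1 h), 4 to 6 (genotype, 4 h), 0 to 2 (1 h response difference), 1 to 4 (4 h response difference) and 5 to 6 (3 conditions). The replicate number as a block put 0 of 72 values on the other side of the threshold and left all counts as they were, for example 5 at 4 h in wild-type cells. Counts of all called genes moved by over 1.5 times: 408 at 1 h in kinase dead cells (57 to 636 under other settings), 77 at 4 h (22 to 286), 503 for 4 h over 1 h (81 to 1007), 927 at 1 h in wild-type cells (410 to 1004), 1498 at 4 h (674 to 1596), 61 for the 1 h response difference (18 to 66, and 35 to 102 with an array left out), 378 for the 4 h one (157 to 420, and 217 to 718 with an array left out), and 1784 between unstimulated genotypes (1086 to 1836). Left-out arrays gave 1865 to 3220 between genotypes at 4 h (2876) and 1006 to 1971 at 1 h (1660), and 1382 to 2767 for wild type 4 h over 1 h (2364). Further calls lost under a setting were Ptgs2 in wild-type cells without the variance trend (adjusted p = 0.122 at 1 h and 0.0841 at 4 h), Hpgd between genotypes at 4 h under 5 of 12 settings (up to 0.178), Hpgd between unstimulated genotypes with the mean of probe sets (0.132), Ptgis between genotypes at 4 h without the variance trend (0.0842), and the 4 h response difference of Slco3a1 without the variance trend (0.0561). Among the other pathway genes, Mgll at 1 h in wild-type cells was lost under 10 of 12 settings and Cbr1 at 4 h in wild-type cells under 7. Slco3a1 between genotypes at 4 h was lost under 4. Plaat3 and Ptgfr at 4 h in wild-type cells and the 4 h response difference of Ptgir were lost under 3 each. The causes were not tested. Dim probe sets such as Ptger2 and Ptgds limit what the arrays can show.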
